A study of Mus musculus with 4 samples.

Results

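The genes described here encode the subunits, activators, inhibitor and assembly chaperones of the mouse proteasome. They were taken by symbol, as the genes whose name begins with Psma, Psmb, Psmc, Psmd, Psme, Psmf or Psmg and a digit, without Psmc3ip, a meiotic recombination factor. This gave 47 of the 15733 protein-coding genes in the deposited table, and 45 of the 47 had enough counts to be tested among 13793 tested genes. The levels of Psma8, a germ-cell subunit, and of all the others were not used to choose them. The samples were 4 RNA-seq libraries of mouse pachytene spermatocytes, the cells in the long stage of meiotic prophase in which homologous chromosomes are fully paired. Single-cell suspensions of testis were kept ex vivo for 12 hours with BMH21 at 2.5 µM, or with the solvent DMSO alone, called mock. BMH21, a DNA intercalator, is used to block transcription of ribosomal RNA genes by RNA polymerase I. The spermatocytes were then sorted by flow cytometry on Hoechst staining of their DNA, so all cell types of the suspension had met the compound before the sort. Each condition had 2 libraries, which the labels call biological replicates, and the strain and age of the mice are not given in the sources used here.

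The proteasome degrades proteins that carry ubiquitin chains. Its barrel-shaped core particle stacks rings of alpha subunits, which form the gate, on rings of beta subunits, some of which cut peptide bonds, and its regulatory particle has a base with a ring of ATPases that unfold substrates and a lid that removes ubiquitin. In spermatocytes and later male germ cells much of the core carries Psma8 in place of its paralog Psma7, the alpha 4 subunit of other cells, and the activator Psme4 can cap it instead of the regulatory particle. Most somatic cells can also exchange the catalytic beta subunits for immunoproteasome ones.

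Depth ran from 30964370 to 41548269 counts a library. Levels are given as CPM (the usual count scaled to depth) with library sizes scaled by TMM, a factor that sets the bulk of genes equal between libraries, and as CPM per kb of exon where genes are compared with each other. The 10 marker genes of pachytene spermatocytes, fixed as a list, were all present and summed to 8239 to 8387 CPM in mock and 8398 to 8532 CPM in BMH21. Ldhc made up most of that sum, and of the 10 genes 3 were called higher (Sycp3 at a log2 fold change of 0.46, Sycp1 at 0.27 and Ldhc at 0.08) and 4 lower (Piwil1, Ccna1, Mybl1 and Hspa2, from -0.16 to -0.07). The list for spermatogonia and early meiotic cells summed to 812 and 834 CPM in mock and 840 and 875 CPM in BMH21, nearly all of it Ddx4. Ddx4 alone measured 795 and 814 CPM in mock and 826 and 858 CPM in BMH21. No other listed gene exceeded 9.66 CPM in any library, so the sum says little of the content of such cells. Ddx4 was called higher (0.07), and Kit (-0.58) and Zbtb16 (-0.95) were called lower. Of 8 Sertoli cell markers 2 were listed, at 0.918 to 2.48 CPM in sum, and 0 of 5 erythroid markers were listed. Macrophage and other immune markers summed to 6.05 to 7.49 CPM and the 6 listed peritubular and endothelial markers to 3.39 to 4.41 CPM. Spermatid markers summed to 301 and 302 CPM in mock and 317 and 318 CPM in BMH21. Leydig markers, mostly Star, summed to 9.13 and 9.60 CPM in mock and 6.55 and 7.29 CPM in BMH21. The part of these differences in the results below was not tested.

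Proteasome mRNAs were abundant in these cells. Scaled for length, the tested proteasome genes had a median mock level of 18.7 CPM per kb (quartiles 8.64 and 47.1), against 3.30 CPM per kb (quartiles 0.523 and 14.8) over all tested genes. Psmc3, an ATPase of the base, was highest at 283 CPM per kb and ranked 94 of the 15733 genes, although 215 bases of its exons are shared with Slc39a13 on the opposite strand. Psmd2, a large base subunit that receives ubiquitin-like proteins, followed at 155 CPM per kb (rank 263). The activator Psme4 stood at 127 CPM per kb (rank 364) and the lid subunit Psmd8 at 112 CPM per kb (rank 434). Transcripts of subunits that are built into the particle in equal number were far from equal. Within the alpha ring without Psma8, mock levels ran from 1.34 CPM per kb for Psma7 to 47.1 CPM per kb for Psma6, a ratio of 35.3. That ratio rests on Psma7. With Psma8 in its place, mock levels ran from 5.54 CPM per kb for Psma2 to 52.4 CPM per kb for Psma8. Among the 6 ATPases they ran from 8.64 CPM per kb for Psmc6 to 283 CPM per kb for Psmc3, a ratio of 32.8. The spread was narrower than that of the ATPases in the beta ring, from 7.16 CPM per kb for Psmb3 to 51.0 CPM per kb for Psmb6, a ratio of 7.13. It was also narrower in the lid, from 12.0 CPM per kb for Psmd14 to 112 CPM per kb for Psmd8, a ratio of 9.37. The length is that of the union of a gene's annotated exons, so a gene with long, rarely used exons is understated. Several subunit genes, among them Psmb3, Psmc1 and Psmd2, have near-identical copies elsewhere in the genome, so their levels are less certain.

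**Figure D1:**
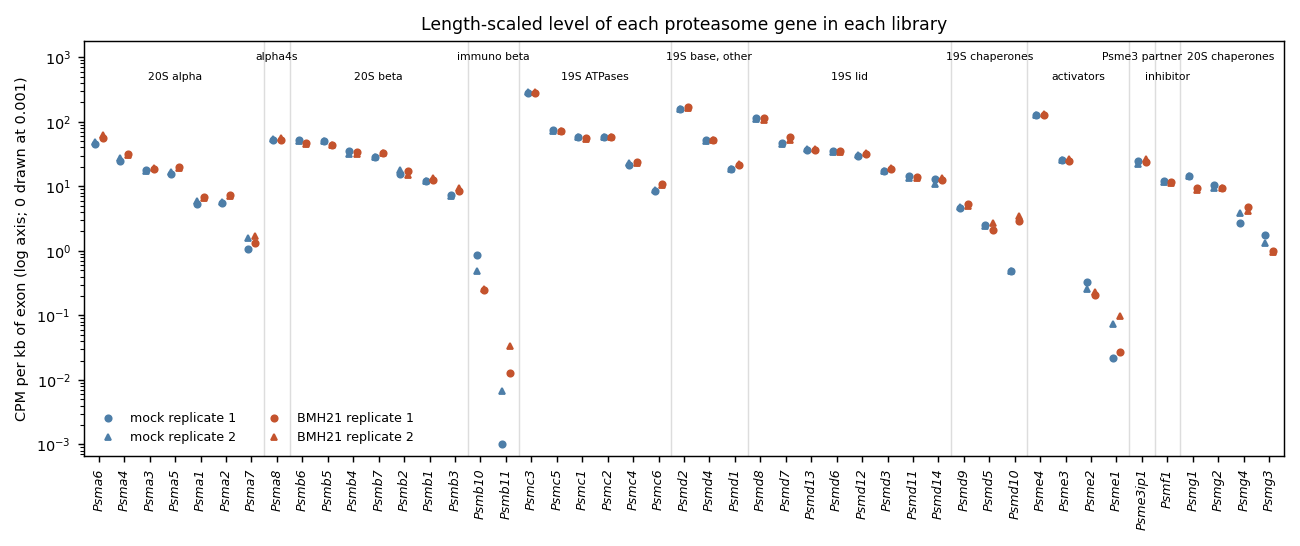
Level of each of the 47 proteasome genes in each library, in CPM per kb of exon on a log axis, grouped by role; circles are replicate 1 and triangles replicate 2, blue for mock and red for BMH21, and a value of 0 is drawn at 0.001. Psma7 is the lowest of the alpha ring, Psma8 beside it is at 52.4 CPM per kb in mock, and Psmb10, Psmb11, Psme1 and Psme2 lie below all the others except Psmd10 in mock.

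Psma8 was the alpha 4 transcript of these cells in both conditions. Its counts were 5376 and 4164 in the mock libraries and 4386 and 5103 in the BMH21 libraries, and those of Psma7 were 140 and 152 in mock and 133 and 195 in BMH21. Every library thus held far more reads of the germ-cell paralog. Of the length-scaled level of both genes, Psma8 took 97.9% and 97.1% in the mock libraries and 97.6% and 96.99% in the BMH21 libraries (means 97.5% ± 0.571 and 97.3% ± 0.429, SD, n = 2 each). The groups overlapped. Of the raw counts its share was 97.5% (exact 95% interval 97.01 to 97.9) in mock replicate 1, 96.5% (95.9 to 97.01) in mock replicate 2, 97.1% (96.5 to 97.5) in BMH21 replicate 1 and 96.3% (95.8 to 96.8) in BMH21 replicate 2, where the intervals cover counting error only. Psma8 lies on chromosome 18 (14706151 to 14762301, plus strand, GRCm38) and Psma7 on chromosome 2 (180036374 to 180042433, minus strand).

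Psma8 itself measured 128 and 133 CPM in mock and 132 and 138 CPM in BMH21. The higher mock library lay above the lower BMH21 library, so the groups overlapped. Its log2 fold change of BMH21 over mock was 0.05 ± 0.04 (SE), with an adjusted p of 0.420 in edgeR's quasi-likelihood test. Psma7 measured 3.34 and 4.86 CPM in mock and 4.02 and 5.26 CPM in BMH21, again with overlap, and a log2 fold change of 0.20 ± 0.21 (adjusted p = 0.547, edgeR). Without mock replicate 1 this value was -0.06, and without BMH21 replicate 2 it was -0.02.

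After BMH21, 13 of the 45 tested proteasome genes were higher, 5 were lower and 27 did not pass the test (edgeR's quasi-likelihood test on all genes, with a threshold of 0.05 on the p adjusted over all of them). Changes were small apart from a few genes: the median log2 fold change was 0.05, against -0.00 over all tested genes. Higher calls made up 28.9% of the tested members against 16.5% of all tested genes, lower calls 11.1% against 12.5%, and calls in either direction 40.0% against 29.1%. The BMH21 libraries lay both above both mock libraries for 20 members, 44.4% of them, against 30.9% of all genes. The groups did not overlap in either direction for 29 members, 64.4% of them, a share near the 60.9% of all genes. Summed over the 47 genes, proteasome mRNA was 5386 and 5342 CPM in mock and 5514 and 5545 CPM in BMH21, a ratio of 1.03 that is 0.04 on the log2 scale and became -0.00 with upper quartile scaling. These are bulk samples, in which fewer cells of a type and less RNA per cell cannot be told apart.

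The higher calls were 5 alpha ring genes, 2 beta ring genes, 1 ATPase, 2 other base genes, 2 lid genes and 1 assembly chaperone. The lower calls were 2 catalytic beta ring genes, 1 immunoproteasome subunit and 2 chaperones of core assembly. Some calls in both directions were lost when single libraries were left out. These were the higher calls of Psma1, Psma5, Psmb3 and Psmd3 and the lower calls of Psmb5, Psmb6, Psmb10 and Psmg3. DESeq2 called 10 members higher and 2 lower, against 1772 higher and 1184 lower of 15733 genes.

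**Figure D2:**
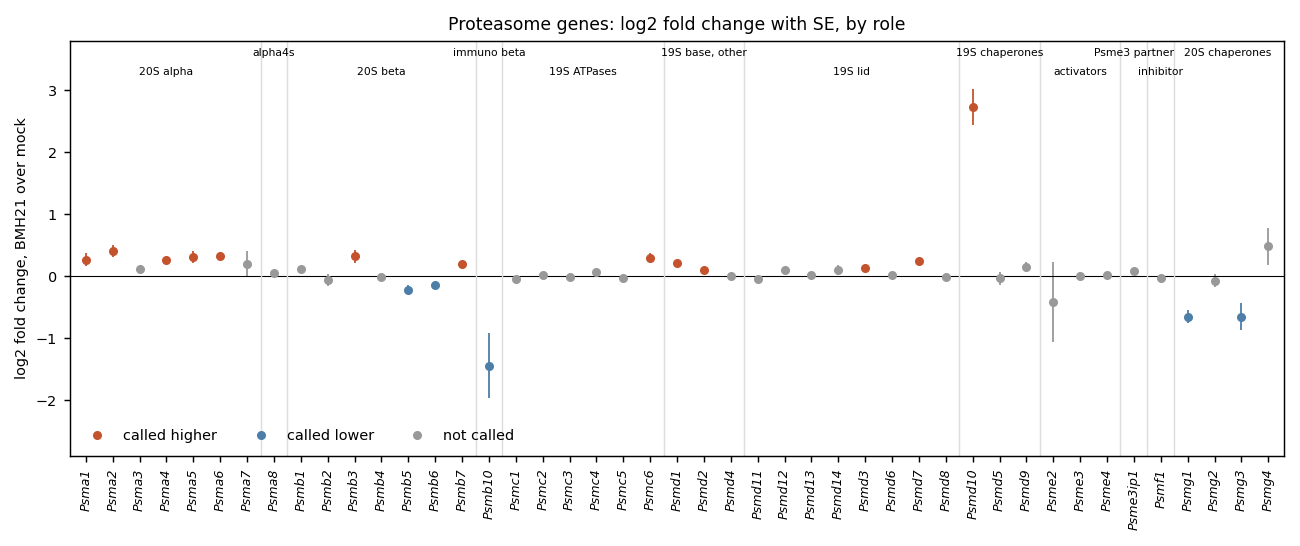
Log2 fold change of BMH21 over mock for each of the 45 tested proteasome genes, grouped by role, with bars of 1 SE; red points were called higher, blue points lower and grey points were not called. The 7 alpha ring genes all lie above 0, the ATPases lie at or near 0 except Psmc6, and the largest values are 2.73 for Psmd10 and -1.44 for Psmb10.

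All 7 genes of the alpha ring had a log2 fold change above 0 (Psma7 not without mock replicate 1 or BMH21 replicate 2), with a median of 0.27, and 5 of the 7 rose, Psma1, Psma2, Psma4, Psma5 and Psma6, which is 71.4% against 16.5% of all tested genes. The calls of Psma1 and Psma5 were lost when single libraries were left out. Summed, the 7 genes measured 245 and 256 CPM in mock (250 ± 8.30, mean ± SD) and 295 and 302 CPM in BMH21 (299 ± 4.65), so the groups lay well apart. The alpha subunits form the outer rings of the core, and the tails of several of them close its gate.

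Psma2 (chr13:14613240-14674236, plus strand) measured 19.9 and 20.8 CPM in mock and 27.4 and 26.5 CPM in BMH21. Both BMH21 libraries stood clear of both mock libraries, and the log2 fold change of 0.40 ± 0.09 was the largest of the ring (1.32-fold, adjusted p = 0.000289, edgeR). Psma6 (chr12:55384222-55418454, plus strand), the most abundant of the 7 per kb, measured 55.8 and 60.5 CPM in mock and 69.5 and 76.4 CPM in BMH21. It rose by 0.33 ± 0.06 on the log2 scale (adjusted p = 5.09e-06, edgeR), without overlap between the groups.

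Psma4 (chr9:54950790-54958030, plus strand) measured 59.4 and 64.4 CPM in mock and 74.9 and 73.0 CPM in BMH21, also without overlap. Its log2 fold change was 0.26 ± 0.06 (adjusted p = 0.000172, edgeR). Psma5 (chr3:108256926-108279974, plus strand) measured 20.3 and 22.1 CPM in mock and 26.7 and 25.7 CPM in BMH21. The groups did not overlap, and it rose by 0.31 ± 0.09 (adjusted p = 0.00650, edgeR), a call that was lost without mock replicate 1 (0.25, adjusted p = 0.109) and without BMH21 replicate 1 (0.28, adjusted p = 0.0529). Exons of Psma4 and Psma5 overlap a gene on the opposite strand, and both have near-identical copies elsewhere in the genome, so their counts are less certain.

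Psma1 (chr7:114264606-114276118, minus strand) measured 15.7 and 17.5 CPM in mock and 20.4 and 19.4 CPM in BMH21. Every BMH21 value was above every mock value, with a log2 fold change of 0.27 ± 0.10 near the threshold (adjusted p = 0.0422, edgeR). It was not called by DESeq2 (0.26, adjusted p = 0.140) or with upper quartile scaling (0.22, adjusted p = 0.0966). Without any single library but mock replicate 2 the call was lost too, at 0.19, 0.23 and 0.30 (adjusted p of 0.335 without mock replicate 1, 0.196 without BMH21 replicate 1 and 0.0666 without BMH21 replicate 2). Psma3 measured 70.1 and 66.2 CPM in mock and 72.6 and 75.9 CPM in BMH21. The groups lay just apart, but its log2 fold change of 0.12 ± 0.05 did not pass (adjusted p = 0.0869, edgeR). Psma3 too has near-identical copies elsewhere in the genome, among them Gm13835 at 100% identity over 665 bases, so its counts are less certain.

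In the beta ring 2 of 7 genes were called higher and 2 lower (28.6% each, against 16.5% and 12.5% of all tested genes). The catalytic subunits were not all called in one direction, though the calls of Psmb5 and Psmb6 were lost in some alternatives. Psmb7, which carries the trypsin-like site, rose, while Psmb5, with the chymotrypsin-like site, and Psmb6, with the caspase-like site, fell. The structural subunit Psmb3 rose, and Psmb1, Psmb2 and Psmb4 did not pass. The summed level of the 7 genes was 400 and 393 CPM in mock and 405 and 402 CPM in BMH21.

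Psmb7 (chr2:38588036-38644087, minus strand) measured 98.4 and 97.9 CPM in mock and 112 and 114 CPM in BMH21. The replicates lay close together and the groups apart, and the log2 fold change was 0.20 ± 0.04 (adjusted p = 0.000247, edgeR). Its exons share 405 bases with Nek6 on the opposite strand. Psmb5 (chr14:54614119-54618022, minus strand) measured 45.1 and 46.0 CPM in mock and 39.4 and 39.0 CPM in BMH21. Both treated libraries were lower, and it fell by 0.22 ± 0.07 on the log2 scale (adjusted p = 0.0134, edgeR). The call was lost without mock replicate 2 (-0.20, adjusted p = 0.0879) and without BMH21 replicate 2 (-0.21, adjusted p = 0.0640).

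Psmb6 (chr11:70525367-70527858, plus strand) measured 97.6 and 93.5 CPM in mock and 88.8 and 84.9 CPM in BMH21, all lower than in mock. It fell by 0.14 ± 0.05 on the log2 scale (adjusted p = 0.0234, edgeR). DESeq2 did not call it (adjusted p = 0.0770), and the call was lost without mock replicate 1 (-0.10, adjusted p = 0.259) and without BMH21 replicate 2 (-0.11, adjusted p = 0.180). Psmb3 (chr11:97703399-97713500, plus strand) measured 16.9 and 16.1 CPM in mock and 19.1 and 22.0 CPM in BMH21. The BMH21 libraries were higher but spread, and the log2 fold change of 0.32 ± 0.10 (adjusted p = 0.0125, edgeR) was not called by DESeq2 (adjusted p = 0.0623), without mock replicate 2 (0.29, adjusted p = 0.0765) or without BMH21 replicate 2 (0.21, adjusted p = 0.253). Psmb5 and Psmb3 have near-identical copies elsewhere in the genome. Psmb1, Psmb2 and Psmb4 had log2 fold changes of 0.11, -0.06 and -0.02.

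**Figure D3:**
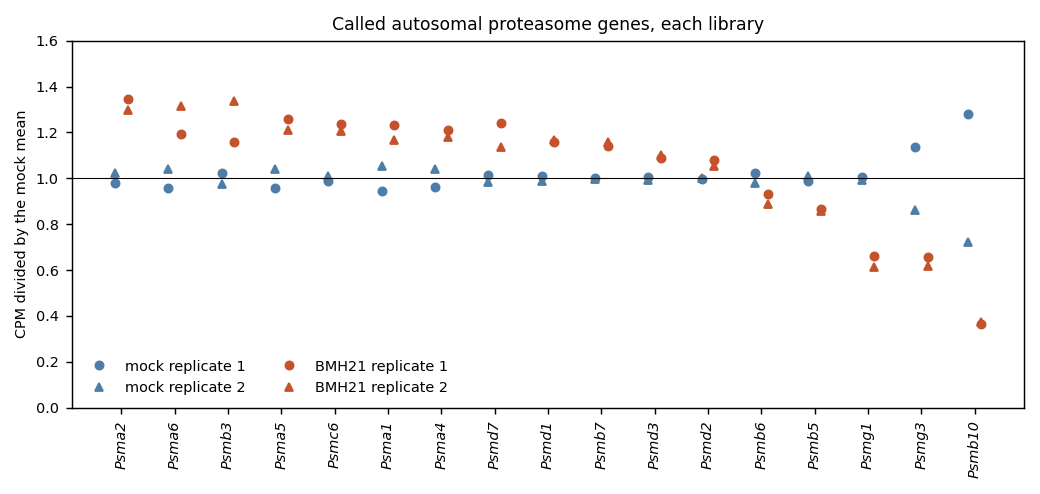
CPM in each library divided by the mock mean, for the 17 autosomal proteasome genes that were called; circles are replicate 1 and triangles replicate 2, blue for mock and red for BMH21, and the line marks 1. The BMH21 points lie above both mock points for the 12 higher genes and below both for the 5 lower ones, and the 2 mock points of Psmg3 and Psmb10 lie far apart.

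Of the immunoproteasome catalytic subunits only Psmb10 was analysed here, and its transcript was scarce. Psmb10, the inducible counterpart of Psmb7, had 62 and 26 counts in mock and 14 and 16 in BMH21, which is 1.48 and 0.832 CPM against 0.423 and 0.432 CPM. The mock libraries differed from each other more than the BMH21 libraries did, but both lay higher. It fell by 1.44 ± 0.53 on the log2 scale (adjusted p = 0.0304, edgeR), and this call was lost in DESeq2 (adjusted p = 0.0895), without mock replicate 1 (-0.95, adjusted p = 0.419), without BMH21 replicate 1 (-1.43, adjusted p = 0.0788) and without BMH21 replicate 2 (-1.46, adjusted p = 0.0824). Of the length-scaled level of Psmb7 and Psmb10, Psmb10 made up 2.30% ± 0.882 of the mock and 0.754% ± 0.00206 of the BMH21 level (SD, n = 2 each). Psmb10 is expressed in immune cells, whose 5 listed markers had sums of 6.51 and 7.49 CPM in mock and 6.70 and 6.05 CPM in BMH21, and their part in the result was not tested. Psmb11, the subunit of thymic epithelium, had 0 and 1 counts in mock and 2 and 6 in BMH21 and was not tested. Psmb8 and Psmb9 are not analysed here.

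The upstream sequence of the promoters was searched for the antioxidant response element TGACNNNGC, the site of NRF1 and its relatives, which drive proteasome genes, and for CCAAT, the site of NF-Y. RefSeq entries on GRCm38.p6 gave the 250 bases before the start of 39 of the 47 genes, and both strands were read. The antioxidant response element was found in 5 of the 39 (12.8%), against 11.5% of 27025 genes. These were Psmb5 and Psmb6, which fell, Psmc6, which rose, and Psmd9 and Psmd12, which were not called. CCAAT was found in 14 of the 39 (35.9%), against 37.5% of all genes. It was present in 5 of 10 higher members (Psma1, Psma2, Psma6, Psmb3 and Psmd10), in 0 of the 5 lower ones in 8 of the 22 not called and in 1 of the 2 not tested. A match is a string of letters and not a measured binding site.

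Both shares lay near those of all genes. The sequences below show the element in the catalytic genes that fell and in a gene that was not called, with TGACNNNGC in capitals. Each runs 5′ to 3′ on the strand of the gene and ends at the base before its first annotated exon or the RefSeq start. They are Psmb5 at chr14:54618023-54618115 (minus strand), Psmb6 at chr11:70525237-70525356 (plus strand) and Psmd9 at chr5:123228070-123228189 (plus strand).
Psmb5: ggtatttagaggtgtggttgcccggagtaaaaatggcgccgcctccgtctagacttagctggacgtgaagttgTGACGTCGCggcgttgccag
Psmb6: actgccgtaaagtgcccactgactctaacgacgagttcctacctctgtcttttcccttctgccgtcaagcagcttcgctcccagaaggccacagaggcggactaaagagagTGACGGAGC
Psmd9: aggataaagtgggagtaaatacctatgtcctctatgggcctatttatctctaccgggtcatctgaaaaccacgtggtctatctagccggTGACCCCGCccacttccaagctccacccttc

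For comparison, 3 members that rose are shown with CCAAT, or its reverse complement ATTGG, in capitals. They are Psma1 at chr7:114276119-114276236 (minus strand), Psmb3 at chr11:97703314-97703398 (plus strand) and Psmd10 at chrX:140956729-140956831 (minus strand). Psmb3 and Psmd10 each hold 2 copies in the stretch shown, Psmd10 in the reverse orientation, and Psma1 holds 1.
Psma1: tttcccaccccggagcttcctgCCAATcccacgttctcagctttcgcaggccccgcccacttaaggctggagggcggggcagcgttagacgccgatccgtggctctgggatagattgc
Psmb3: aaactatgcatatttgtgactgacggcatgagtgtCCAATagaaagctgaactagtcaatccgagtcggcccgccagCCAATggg
Psmd10: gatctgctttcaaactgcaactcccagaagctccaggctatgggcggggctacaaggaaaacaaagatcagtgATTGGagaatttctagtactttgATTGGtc

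Of the 17 genes of the base and lid of the regulatory particle, 5 rose (Psmc6, Psmd1, Psmd2, Psmd3 and Psmd7), which is 29.4% against 16.5% of all tested genes. The others did not pass, and the median log2 fold change was 0.02. The 6 ATPases, which thread substrates into the core, summed to 1313 and 1322 CPM in mock and 1303 and 1328 CPM in BMH21. Among them Psmc3 measured 735 and 741 CPM in mock and 715 and 740 CPM in BMH21, with a log2 fold change of -0.02, and Psmc1, Psmc2, Psmc4 and Psmc5 lay between -0.04 and 0.07. With upper quartile scaling Psmc3 was called lower.

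Psmc6 (chr14:45329788-45349705, plus strand), the least abundant ATPase, measured 29.9 and 30.6 CPM in mock and 37.4 and 36.5 CPM in BMH21. The groups stood apart, with a rise of 0.29 ± 0.08 on the log2 scale (adjusted p = 0.00232, edgeR). Psmd1 (chr1:86064387-86139151, plus strand), a scaffold of the base, measured 137 and 134 CPM in mock and 157 and 159 CPM in BMH21. It rose by 0.22 ± 0.04 (adjusted p = 5.59e-06, edgeR) without overlap, although 301 bases of its exons are shared with Gm21972 on the same strand. Psmd2 has a near-identical copy elsewhere in the genome. Psmd2 (chr16:20651652-20663414, plus strand) measured 627 and 629 CPM in mock and 677 and 661 CPM in BMH21. Its rise of 0.09 ± 0.02 (adjusted p = 0.00161, edgeR) was small and was not called with upper quartile scaling (0.05, adjusted p = 0.145). Psmd4, a ubiquitin receptor of the base, measured 147 and 142 CPM in mock and 146 and 145 CPM in BMH21, with overlap.

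In the lid, Psmd7 (chr8:107580381-107588464, minus strand), the partner of the deubiquitinase Psmd14, measured 107 and 103 CPM in mock and 131 and 119 CPM in BMH21. Both treated libraries were higher, with a log2 fold change of 0.25 ± 0.04 (adjusted p = 7.06e-06, edgeR). Psmd3 (chr11:98682554-98695979, plus strand), a structural lid subunit, measured 85.9 and 84.8 CPM in mock and 92.8 and 94.1 CPM in BMH21. The groups did not overlap, but the rise of 0.13 ± 0.05 (adjusted p = 0.0326, edgeR) was not called by DESeq2 (adjusted p = 0.0904), with upper quartile scaling (0.09, adjusted p = 0.190), or without any single library: adjusted p was 0.0982 without mock replicate 1, 0.143 without mock replicate 2, 0.0549 without BMH21 replicate 1 and 0.124 without BMH21 replicate 2. The other 6 lid genes, Psmd14 among them, had log2 fold changes from -0.04 for Psmd11 to 0.10 for Psmd12.

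Of the chaperones that assemble the base, 1 of 3 was called, which is 33.3%, near the 29.1% of all tested genes. Psmd10, known as gankyrin, holds the ATPase Psmc4 during assembly of the base, and its gene is the only X-linked one of the 47 (chrX:140948429-140956728, minus strand). It had 30 and 22 counts in mock and 143 and 190 in BMH21, which is 0.715 and 0.704 CPM against 4.32 and 5.13 CPM. Mock libraries were uniformly low and BMH21 libraries high, a 6.63-fold difference (log2 fold change 2.73 ± 0.29, adjusted p = 4.23e-12, edgeR). The gene lies among X-linked genes that mostly moved the same way: 72.6% of the 336 tested genes of that chromosome passed as higher, and their median log2 fold change of 4.18 was above that of Psmd10. The other chaperones of the base, Psmd5 and Psmd9, had log2 fold changes of -0.03 (adjusted p = 0.870, edgeR) and 0.14 (adjusted p = 0.162, edgeR). Psmd9 measured 33.1 and 34.1 CPM in mock and 38.9 and 35.4 CPM in BMH21, and its exons share 1849 bases with Gm26745 on the opposite strand.

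Of the 4 chaperones of core assembly, 2 were called lower, Psmg1 and Psmg3, against 12.5% of all tested genes. Psmg1 and Psmg2 form a pair that starts the alpha ring, and Psmg3 and Psmg4 form a pair that completes it. Psmg1 (chr16:95979933-95990960, minus strand) measured 19.4 and 19.1 CPM in mock and 12.7 and 11.8 CPM in BMH21. Both treated libraries were far below both mock libraries, and it fell by 0.65 ± 0.11 on the log2 scale (1.57-fold, adjusted p = 1.63e-06, edgeR). Its partner Psmg2 measured 18.1 and 16.3 CPM in mock and 16.6 and 16.1 CPM in BMH21. These groups overlapped, with a log2 fold change of -0.07 ± 0.11 (adjusted p = 0.682, edgeR).

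Psmg3 (chr5:139823592-139826885, minus strand) measured 5.05 and 3.84 CPM in mock and 2.93 and 2.75 CPM in BMH21. It was lower in both treated libraries, by 0.66 on the log2 scale (SE 0.22, adjusted p = 0.0173, edgeR), and it shares 280 exonic bases with Gm26938 on the same strand. The call was lost in DESeq2 (adjusted p = 0.0951), without mock replicate 1 (-0.43, adjusted p = 0.322) and without BMH21 replicate 2 (-0.61, adjusted p = 0.0918). Psmg4 measured 1.48 and 2.11 CPM in mock and 2.69 and 2.29 CPM in BMH21. The groups lay just apart, with a log2 fold change of 0.48 ± 0.30 that did not pass (adjusted p = 0.238, edgeR). Within neither pair were both partners called. Pomp, the maturation factor that acts later in core assembly, measured 34.9 and 29.1 CPM in mock and 29.7 and 31.7 CPM in BMH21, with overlap and a log2 fold change of -0.06 (adjusted p = 0.633, edgeR). Without mock replicate 1 the value for Pomp was 0.08.

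Among the activators, Psme4 dominated in both conditions. Psme4 (chr11:30771726-30880361, plus strand), known for its part in the loss of histones in elongating spermatids, measured 1076 and 1057 CPM in mock and 1064 and 1089 CPM in BMH21. The groups overlapped, with a log2 fold change of 0.01 ± 0.02 (adjusted p = 0.710, edgeR), which was -0.03 with upper quartile scaling. Psme3, the nuclear activator, measured 74.5 and 75.5 CPM in mock and 73.9 and 77.0 CPM in BMH21, also with overlap (log2 fold change 0.01 ± 0.05, adjusted p = 0.924, edgeR), and -0.04 with upper quartile scaling. Without BMH21 replicate 2 the values were -0.02 for Psme3 and -0.00 for Psme4. Per kb, Psme4 stood 5.01 times higher than Psme3 in mock and 5.02 times higher in BMH21.

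The interferon-inducible activators were near the floor. Psme2 had 24 and 14 counts in mock and 12 and 15 in BMH21 (0.572 and 0.448 CPM against 0.362 and 0.405 CPM), with a log2 fold change of -0.42 ± 0.65 (adjusted p = 0.706, edgeR). Psme1 had 2 and 5 counts in mock and 2 and 8 in BMH21 and was not tested. Of the 3 activators tested, 0 were called by edgeR, against 29.1% of all tested genes. In that test 0 had an unadjusted p under 0.05, and 0 were called by DESeq2. With only 3 genes these counts say little. Psme2 has a near-identical copy, Psme2b, which is not analysed here. Psme3ip1, which binds Psme3 and was taken in by its symbol, had a log2 fold change of 0.09 (adjusted p = 0.208, edgeR), and the inhibitor Psmf1 one of -0.04 (adjusted p = 0.670, edgeR).

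Genes that act around the proteasome were read from 7 lists, whose counts of higher genes stand against 16.5% of all tested genes. In the list on proteasome gene transcription, 3 of 8 tested genes rose (37.5%), Nfe2l1, Ddi2 and Mafg, and the median log2 fold change was 0.33. Nfe2l1 encodes NRF1, the membrane-anchored factor that raises proteasome gene expression when proteasome activity is short, and Ddi2 the protease that releases it. Nfe2l1 measured 60.6 and 57.8 CPM in mock and 99.0 and 96.4 CPM in BMH21. The groups lay far apart, with a log2 fold change of 0.72 ± 0.05 (adjusted p = 7.42e-19, edgeR). Ddi2 measured 53.2 and 56.4 CPM in mock and 78.5 and 76.7 CPM in BMH21, again well apart (0.50 ± 0.06, adjusted p = 2.79e-11, edgeR). Mafg, a small Maf partner of NRF1, rose from 0.477 and 0.320 CPM to 2.02 and 1.48 CPM (adjusted p = 0.000224, edgeR). Keap1, which holds back the related factor Nfe2l2, had a log2 fold change of -0.06 (adjusted p = 0.431, edgeR). These are transcript levels, and NRF1 is controlled largely as a protein.

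Of 12 tested genes of other subunits and associated factors, 3 rose (25%, against 16.5% of all tested genes). Zfand5, which binds and activates the proteasome, measured 29.9 and 29.5 CPM in mock and 39.9 and 42.0 CPM in BMH21 (log2 fold change 0.46, adjusted p = 1.10e-06, edgeR). Its stress-induced relative Zfand2a measured 22.5 and 21.5 CPM in mock and 31.1 and 33.6 CPM in BMH21 (0.56, adjusted p = 2.76e-07, edgeR). Both stood apart between the groups. Ecpas, a scaffold that binds the particle, measured 84.9 and 89.6 CPM in mock and 101 and 101 CPM in BMH21 (0.21, adjusted p = 0.000341, edgeR). The ubiquitin receptor Adrm1 measured 56.9 and 53.2 CPM in mock and 59.2 and 53.8 CPM in BMH21, with overlap (0.03, adjusted p = 0.761, edgeR), and its value was -0.01 with upper quartile scaling, -0.01 without mock replicate 2 and -0.04 without BMH21 replicate 1.

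**Figure D4:**
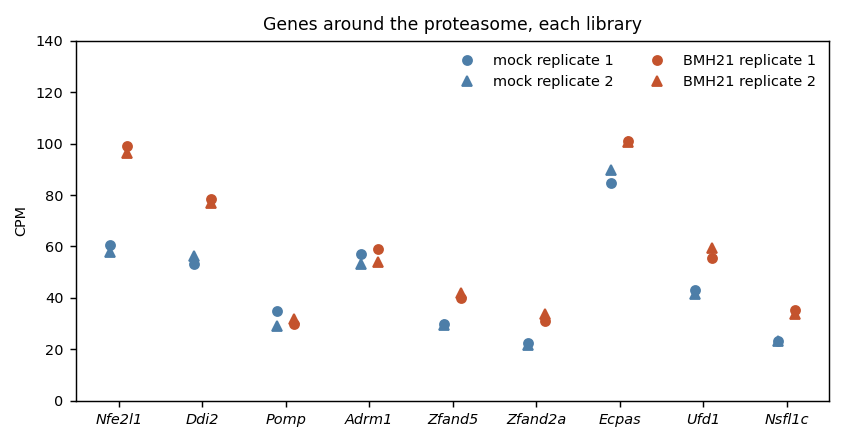
CPM in each library for 9 genes that act around the proteasome; circles are replicate 1 and triangles replicate 2, blue for mock and red for BMH21. The BMH21 points of Nfe2l1, Ddi2, Zfand5, Zfand2a, Ecpas, Ufd1 and Nsfl1c lie above both mock points, and those of Pomp and Adrm1 overlap with mock.

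Upstream of the proteasome, 3 of 7 tested genes for ubiquitin and its activating enzymes rose (42.9%, against 16.5% of all tested genes), and 2 of these 3 are sex-linked. The main activating enzyme Uba1, which is X-linked, measured 4.91 and 5.41 CPM in mock and 8.30 and 8.56 CPM in BMH21 (log2 fold change 0.71, adjusted p = 0.000318, edgeR). Its Y-linked counterpart Uba1y rose from 0.858 and 0.768 CPM to 12.3 and 14.6 CPM (4.03, adjusted p = 7.86e-27, edgeR). In BMH21 the Y-linked gene thus stood above the X-linked one, the reverse of mock, as CPM not scaled for length. The 2 genes are close in sequence, so reads may be split between them. The ubiquitin fusion gene Rps27a had a log2 fold change of 0.12 (adjusted p = 0.0302, edgeR), a call lost in DESeq2 (adjusted p = 0.0869), with upper quartile scaling (0.07), without mock replicate 1 (0.11, adjusted p = 0.173), without mock replicate 2 (0.13, adjusted p = 0.0810) and without BMH21 replicate 2 (0.10, adjusted p = 0.127).

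Shuttle factors, which carry ubiquitinated proteins to the base, gave 1 higher and 1 lower call among 9 (11.1% each, against 16.5% and 12.5% of all tested genes). The higher one was the X-linked Ubqln2, at 0.0953 and 0.0640 CPM in mock and 3.32 and 2.38 CPM in BMH21 (log2 fold change 5.06, adjusted p = 2.32e-12, edgeR). The lower one, Rad23b, measured 284 and 294 CPM in mock and 274 and 274 CPM in BMH21, a log2 fold change of -0.08 (adjusted p = 0.0494, edgeR) that lost its call without any 1 of the 4 libraries, at -0.10 and -0.05 without mock replicates 1 and 2 and -0.08 without either BMH21 replicate. Its call was also lost in DESeq2 (adjusted p = 0.107). Among the p97 unfoldase and its cofactors, 5 of 15 rose (33.3%) and 1 fell (6.67%), against 16.5% and 12.5% of all tested genes. The cofactors Ufd1 (43.3 and 41.4 CPM against 55.7 and 59.3 CPM, log2 fold change 0.44, adjusted p = 9.40e-08, edgeR) and Nsfl1c (23.2 and 23.2 CPM against 35.1 and 33.7 CPM, 0.57, adjusted p = 7.15e-08, edgeR) rose, as did Ubxn7 by 0.23 on the log2 scale. Ube4b, a ligase that extends ubiquitin chains, fell from 92.8 and 91.8 CPM to 75.5 and 75.5 CPM (log2 fold change -0.29, adjusted p = 3.02e-06, edgeR).

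The COP9 signalosome, whose subunits are related to those of the lid, had 3 higher calls and 1 lower call among 10 tested genes (of all tested genes, 16.5% were higher and 12.5% lower), with a median log2 fold change of 0.01. Cops9 had the smallest adjusted p (log2 fold change 0.33, adjusted p = 0.000561, edgeR). Cops2 (0.12) and Cops8 (0.13) lost their calls in DESeq2 (adjusted p of 0.0607 and 0.0505), with upper quartile scaling (0.08 for each), and without mock replicate 1 (0.09 and 0.11). Cops7a, the lower one, had a log2 fold change of -0.10 and was not called once mock replicate 1 (-0.10), mock replicate 2 (-0.09) or BMH21 replicate 2 (-0.08) was left out. Of 9 tested genes of antigen presentation on MHC class I, which uses proteasome products, 3 rose (33.3%, against 16.5% of all tested genes), and all 3 are chaperones of the endoplasmic reticulum that fold many other proteins. Canx measured 338 and 340 CPM in mock and 482 and 495 CPM in BMH21 (log2 fold change 0.53, adjusted p = 1.95e-26, edgeR), Calr rose by 0.15 on the log2 scale, and Pdia3 by 0.10, a call lost with upper quartile scaling (0.06, adjusted p = 0.106) and without mock replicate 1 (adjusted p = 0.0576).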

How the data were processed

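RNA-seq was done on 4 libraries of sorted mouse pachytene spermatocytes, 2 per condition; TRIzol RNA and a kit for stranded mRNA libraries were used, per the labels' protocols. The notes name fastp, STAR, SAMtools, featureCounts, DESeq2 and mm10, per the submitters' processing notes; versions, strand use and the handling of reads that map to several genes are not given in the sources used here. The authors deposited 1 table with raw counts per gene, which were analysed here. Its size-factor-normalized signal, log2 fold changes, Wald score and p-values, made by the authors with DESeq2 per the file headers, entered no test.

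Counts were tested in R 4.3.3 with edgeR 4.0.16 (TMM factors, filterByExpr with a minimum count of 10, quasi-likelihood test with group alone, Benjamini-Hochberg adjustment over 13793 genes, threshold 0.05), after a check on simulated data. The SE is the log2 fold change divided by the square root of F, which is too small for large rises from few counts. DESeq2 1.42.0, other scalings, other filters, a replicate block and leaving out each library were alternatives. The library sizes and 2 replicates per group limit precision, and the p-values measure only the spread between these samples. Coordinates are from GENCODE M21 on GRCm38, matched by gene identifier for all 47 members, since the positions in the table are not those of mm10. Exon overlaps came from the same annotation. Near-identical copies are stretches of at least 300 bases at 95% identity or more (blastn 2.17.0), with matches found for 11 members. For Psmd1 and Psmd13 the only match was a gene that overlaps their own exons (Gm21972 and Sirt3), not a copy elsewhere. Genes on opposite strands cannot be separated if strand was not used.

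The members and lists were chosen with earlier results of these data known. Values per library are given for each called member, members apart by at least 1.25-fold, Psma7, Psma8, the catalytic subunits, the activators and Psmd10. Up to 4 called genes of each surrounding list with the smallest p are named, some by log2 fold change alone. Nfe2l1, Ddi2, Pomp, Adrm1 and Uba1 are named in any case. Psmc1, Psmc3, Psma3, Psmd4, Psmd9, Psmg2, Psmg4 and Keap1 were named after their values were seen. Lists of 49 proteasome symbols held 3 that are not analysed here (Psmb8, Psmb9 and Psme2b).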

Additional observations from a re-analysis of the deposited data

How the results depend on the processing

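Of the 13 higher members, 8 (Psma2, Psma4, Psma6, Psmb7, Psmc6, Psmd1, Psmd7 and Psmd10) and of the 5 lower ones 1 (Psmg1) were called in the same direction under all 11 alternatives. Upper quartile scaling, which moved the median of all genes by -0.05 on the log2 scale, gave 10 higher and 6 lower of 45 members. The added lower call was Psmc3. Over all 13793 tested genes this scaling gave 1805 higher and 2480 lower, against 2282 and 1731 in the main test. It also changed the ratio of summed levels from 0.0438 to -0.0019 on the log2 scale. It turned the log2 fold changes of Psme3 (-0.0355), Psme4 (-0.0321) and Adrm1 (-0.0121), none of them called, below 0. DESeq2 gave 10 higher and 2 lower, with 4 alpha ring genes, against 1772 higher and 1184 lower of 15733 genes. Leaving out 1 library gave 10 to 11 higher, 1 to 4 lower and 3 to 5 alpha ring genes, and a log2 ratio of summed levels of 0.04 to 0.05. The higher calls without mock replicate 1 and without BMH21 replicate 1 included Psme3ip1, which was not among the 13. A fit without 1 library leaves only 1 in a group, so its counts of calls say little. They were not set against those of all genes. With exon lengths of the longest transcript, the share of Psma8 was 96.2% in mock and 95.8% in BMH21, and that of Psmb10 in BMH21 0.816%. Without 1 library, the share of Psma8 ran from 97.1% to 97.9% in mock and from 96.99% to 97.6% in BMH21, and that of Psmb10 in mock from 1.68% to 2.92%. Leaving out 1 library also turned the sign of uncalled genes: Psma7 ran from -0.0633 to 0.4814, Psme3 from -0.0205 to 0.0392, Psme4 from -0.0035 to 0.0301, Adrm1 from -0.0362 to 0.1013 and Pomp from -0.1821 to 0.0802. RLE factors and TMM factors from autosomal genes gave 13 and 5. Of the 13793 tested genes they gave 2293 and 2341 higher and 1792 and 1664 lower.

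With the replicate number as a block, 12 members were higher, 4 lower and 4 of the alpha ring higher. Psma1 and Psmb10 lost their calls. Of the 13793 tested genes, 2189 were higher and 1595 lower with this block. Same-numbered libraries did not deviate together (r = 0.0105 over 13793 genes), and the labels do not say that the numbers pair the samples. The counts of alpha ring calls and of surrounding genes under the alternatives were added after seeing the data. Low counts per library (Psmb10, Psmd10 in mock, Psme1, Psme2, Psmb11) limit what can be read of those genes.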
